A study of Mus musculus with 24 samples.

Results

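Tubulin and kinesin genes encode the microtubule track and the motors that walk on it. The genes described here were the protein-coding genes whose mouse symbol begins with Tub, followed by one of the letters a, b, d, e, g or h, or with Kif followed by a digit, and whose mean count was at least 10. Of 64 genes with such symbols, 57 reached that mean, 21 in the tubulin group and 36 in the kinesin group, out of 52636 gene identifiers in the files. Kif12, Kif2b, Kif28, Tuba3a, Tuba3b, Tubal3 and Tubb1 fell under the minimum. The members nearest to the limit from above were Tubb6 and Kif2c, with mean counts of 26.8 and 30.5, and the nearest below was Kif28 with 4.92. The symbol rule also took in the proteins of the gamma-tubulin ring complex (Tubgcp2 to Tubgcp6), which are not tubulins, and Kif1bp, which binds kinesins and has no motor domain of its own.

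RNA was sequenced from the nucleus accumbens (NAc), the ventral part of the striatum, of 24 C57BL/6 mice aged 50 days, with 1 library per animal and 6 animals in each of 4 groups. MSUS animals had been separated from their mothers in an unpredictable manner from postnatal day 1 to 14 while the mothers were stressed, and control (Con) animals had not. Both treatments were represented by females and by males, all drug-naive and of the same strain. The tissue was a bilateral punch, so every level below is a mean over all cell types in it, and fewer cells of a type and less RNA per cell cannot be told apart. The litter of each animal is not given in the sources used here, so animals of a group may be littermates.

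Alpha and beta tubulin pair into the dimer from which microtubules grow, gamma tubulin sits in the ring complex that seeds them, and delta and epsilon tubulin belong to centrioles and basal bodies. In neurons, microtubules fill axons and dendrites, and kinesins carry vesicles, mitochondria and receptor subunits along them towards the growing ends. Other kinesins build the mitotic spindle or act in cilia, and are used mostly by dividing or ciliated cells. Neurons express several alpha and beta isotypes, of which Tubb3 is regarded as a neuronal marker and Tubb4a is abundant in myelinating oligodendrocytes as well.

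Reads assigned to genes ran from 39923666 to 70575745 per library. Of the reads that were assigned or met no gene, those that met no gene made up 31.3% to 35.1% in Con females against 36.7% to 44.2% in MSUS females, so this share differed between the groups without overlap, and it ran from 32.5% to 45.0% in males. Markers of striatal projection neurons, the main neurons of the NAc, were present in every library. Markers of excitatory neurons of the cortex, which are not cells of the NAc, were unevenly spread. Slc17a7, the vesicular glutamate transporter of cortical neurons, had normalized counts (counts divided by a size factor for each library) of 5902 to 61673 in Con females with a median of 19348, and of 221 to 24609 in MSUS females with a median of 3709. The 4 libraries highest in the summed cortical list were Con female replicates 2 and 3, Con male replicate 5 and MSUS male replicate 6, with Slc17a7 at 36841, 61673, 40712 and 61383. The female results are also given without them for every member whose call was lost, and for some of the others. A member given only with all libraries may have moved as well. The log2 fold change of Kif17, for example, went from 0.088 with all libraries to -0.0029 without them.

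Promoter sequences were available for 46 of the 57 members (RefSeq starts on GRCm38, the assembly also named mm10, from 250 bases before to 50 after the start). The stretches below belong to a pair of mitotic kinesins and a pair of tubulin isotypes, shown as examples of the motifs counted below in each group. Each line ends at the base before the start, is written 5′ to 3′ on the strand of the gene, and overlaps no annotated exon. Capitals mark the cell cycle homology region (TTTGAA or TTCGAA, either strand) in Kif11 and Kif2c and the GC box (GGGCGG, either strand) in Tuba4a and Tubb4b.
Kif11, chr19:37376262-37376381, plus strand: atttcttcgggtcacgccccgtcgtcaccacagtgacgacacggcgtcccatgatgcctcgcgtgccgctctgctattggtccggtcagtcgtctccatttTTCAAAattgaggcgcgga
Kif2c, chr4:117178773-117178892, minus strand: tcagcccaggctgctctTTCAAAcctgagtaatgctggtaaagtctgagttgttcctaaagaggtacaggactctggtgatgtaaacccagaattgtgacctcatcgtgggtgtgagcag
Tuba4a, chr1:75219295-75219414, minus strand: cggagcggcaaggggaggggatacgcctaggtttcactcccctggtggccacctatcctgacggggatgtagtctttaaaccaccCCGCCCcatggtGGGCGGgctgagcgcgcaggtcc
Tubb4b, chr2:25224703-25224872, minus strand: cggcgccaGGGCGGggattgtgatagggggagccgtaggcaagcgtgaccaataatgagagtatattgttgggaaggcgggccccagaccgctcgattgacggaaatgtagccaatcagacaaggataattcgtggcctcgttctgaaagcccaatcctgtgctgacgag

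The cell cycle letters occurred in 9 of the 10 mitotic kinesins with a promoter in the table, in 1 of 11 transport kinesins and in 1 of 17 members of the tubulin group, against 21.7% of all genes with a promoter. GC boxes occurred in 10 of 17 members of the tubulin group and 21 of 29 of the kinesin group, against 38.2% of all genes. CCAAT boxes (CCAAT, either strand) occurred in 6 and 13 of the same members, against 41.1% of all genes. None of the 3 motifs contains another, and a match describes the letters only.

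Kif5a and Tuba1a were the most abundant members per length, counted from reads that mapped to 1 place. Of the 100-base windows of their transcripts, 0% in Kif5a and 65.9% in Tuba1a also occur in other genes. The level of Tuba1a, and its place in the order, may thus be too low. On the TPM scale (counts divided by exon length and scaled to the same sum in every library), Kif5a, the neuronal heavy chain of kinesin-1, averaged 963 ± 229 (SD over 24 libraries) and Tuba1a, the main alpha tubulin of neurons, averaged 869 ± 145. Tubb4a followed at 617 ± 131 TPM and Kif1a, a kinesin-3 motor for synaptic vesicle precursors, at 562 ± 52.5 TPM. Tubb2a, Kif5c, Tubb3, Tubb5, Kif1b, Tuba4a and Tuba1b lay between 468 and 224 TPM in that order. Neighbours in the order differed by less than the larger of their SDs, except that Tuba1a stood above Tubb4a, Kif1a above Tubb2a and Tubb5 above Kif1b by more. In all, 17 members averaged over 100 TPM and 10 averaged under 1 TPM, and 7 of those 10 were mitotic kinesins. Tuba1c and Tubb6 were also under 1 TPM, at 0.95 and 0.76.

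Within the alpha pool, Tuba1a made up 64.6% ± 1.75 of the summed TPM in Con females against 64.5% ± 1.17 in MSUS females (SD, n = 6), with 65.5% ± 1.51 and 64.8% ± 2.24 in Con and MSUS males. Tuba4a gave 18.7% ± 1.23 in Con females against 18.3% ± 1.21 in the MSUS females, while Tuba1b gave 16.2% ± 0.785 and 16.7% ± 0.118. These shares differed between the female groups by less than the SD of the Con females, while the sum of the pool averaged 1475 ± 255 TPM in Con females and 1187 ± 134 TPM in MSUS females. Within the beta pool, Tubb4a made up 27.9% to 30.6% in Con females and 25.9% to 27.5% in MSUS females, which did not overlap. In males its share ran from 26.4% to 30.0% in Con and from 26.7% to 31.0% in MSUS animals. The share of Tubb4a in the Con females other than replicates 2 and 3 began at the same 27.9%. Shares were not tested, and those of Tuba1a and Tuba1b may be too low, since reads that map to more than 1 place were not counted.

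The comparison of MSUS with Con females asked which members changed after early-life stress in females. It gave 22 members past an adjusted p of 0.10, of which 21 were lower in MSUS females and 1 was higher. In the tubulin group 12 of 21 members passed, 11 lower and 1 higher, and in the kinesin group 10 of 36, all lower. Over all 20571 genes tested, 25.1% passed, 13.1% higher and 11.9% lower, so the kinesin count was near the background and its direction was not evenly split. The median log2 fold change was -0.23 for the tubulin group and -0.16 for the kinesin group, against -0.00273 for all genes. Differences were tested with edgeR's quasi-likelihood test on the counts, with Benjamini-Hochberg adjustment over all genes, here and below.

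Among the alpha isotypes, Tuba1a, Tuba1b, Tuba4a and Tuba8 fell in MSUS females and Tuba1c, near the detection limit, did not pass. Tuba1a normalized counts ran from 21334 to 30635 in Con females (median 24357) and from 17509 to 23338 in MSUS females (median 18609). Every MSUS female was under the median of the Con females although the groups overlapped, and the log2 fold change was -0.36 ± 0.10 (SE, adjusted p = 0.0296). Tuba4a, an isotype whose protein ends without the usual tyrosine, ran from 13089 to 18956 in Con females (median 13805) and from 9970 to 13496 in MSUS females (median 11161). Its log2 fold change was -0.38 ± 0.10 (adjusted p = 0.0240), again with every MSUS animal under the median of the Con females. Tuba8 had the largest log2 fold change of the isotypes, -0.88 ± 0.32 (adjusted p = 0.0809), at low counts of 147 to 430 in Con and 73.8 to 252 in MSUS females. Without Con female replicate 3 Tuba8 gave -0.63 ± 0.28 (adjusted p = 0.153), without the 4 libraries highest in cortical markers -0.55 ± 0.31 (adjusted p = 0.284), and it passed in 4 of 12 fits that left out 1 animal. Tuba1b gave -0.32 ± 0.11 (adjusted p = 0.0759), -0.21 ± 0.08 without Con female replicate 3 (adjusted p = 0.0873) and -0.15 ± 0.07 without the 4 libraries (adjusted p = 0.177), and it passed in 5 of those 12 fits.

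Reads of Tuba1a, Tuba1b and Tuba1c are hard to assign. Of the 100-base windows along their transcripts, 65.9% in Tuba1a, 73.0% in Tuba1b and 53.4% in Tuba1c also occur in transcripts of another gene, each other's among them, so the split between these genes is uncertain. Tuba4a shares 46.7% of its windows, all with Stk16 and none with an alpha isotype. Windows were matched on either strand. Sharing with a gene on the opposite strand is therefore included, although counts of the sense strand keep such reads apart. Tuba8 shares 12.5% of its windows.

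Of the 7 beta isotypes 4 fell and none rose. Tubb4a fell the most, from 18439 to 29152 in Con females (median 21703) to 14865 to 19547 in MSUS females (median 15728), and every MSUS female was under the median of the Con females. The log2 fold change was -0.46 ± 0.11 (adjusted p = 0.0145). Tubb5, the isotype used most widely across cell types, ran from 16853 to 22474 in Con and from 14231 to 17436 in MSUS females, with a log2 fold change of -0.32 ± 0.08 (adjusted p = 0.0195). Tubb3 ran from 10671 to 14514 in Con and from 8964 to 11025 in MSUS females, with a log2 fold change of -0.28 ± 0.08 (adjusted p = 0.0314), and Tubb4b gave -0.41 ± 0.14 (adjusted p = 0.0656). Without the 4 libraries highest in cortical markers Tubb4b gave -0.20 ± 0.10 (adjusted p = 0.223). In each of these genes the highest MSUS female was replicate 1, which was also the highest of its group in Slc17a7, and it overlapped the lowest Con females. With offsets for gene length and GC content Tubb3 gave -0.17 ± 0.07 (adjusted p = 0.155) and Tubb4b -0.33 ± 0.13 (adjusted p = 0.137). Tubb2a and Tubb2b, near-identical neighbours on chromosome 13, gave -0.27 ± 0.12 (adjusted p = 0.124) and -0.14 ± 0.08 (adjusted p = 0.215), and did not pass. Of their windows 36.93% and 27.75% also occur in other transcripts, each other's among them. Tubb6 gave 0.05 ± 0.18 (adjusted p = 0.875) at 19.9 to 44.4 normalized counts, with 90.9% of the reads at its locus on the other strand.

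**Figure D1:**
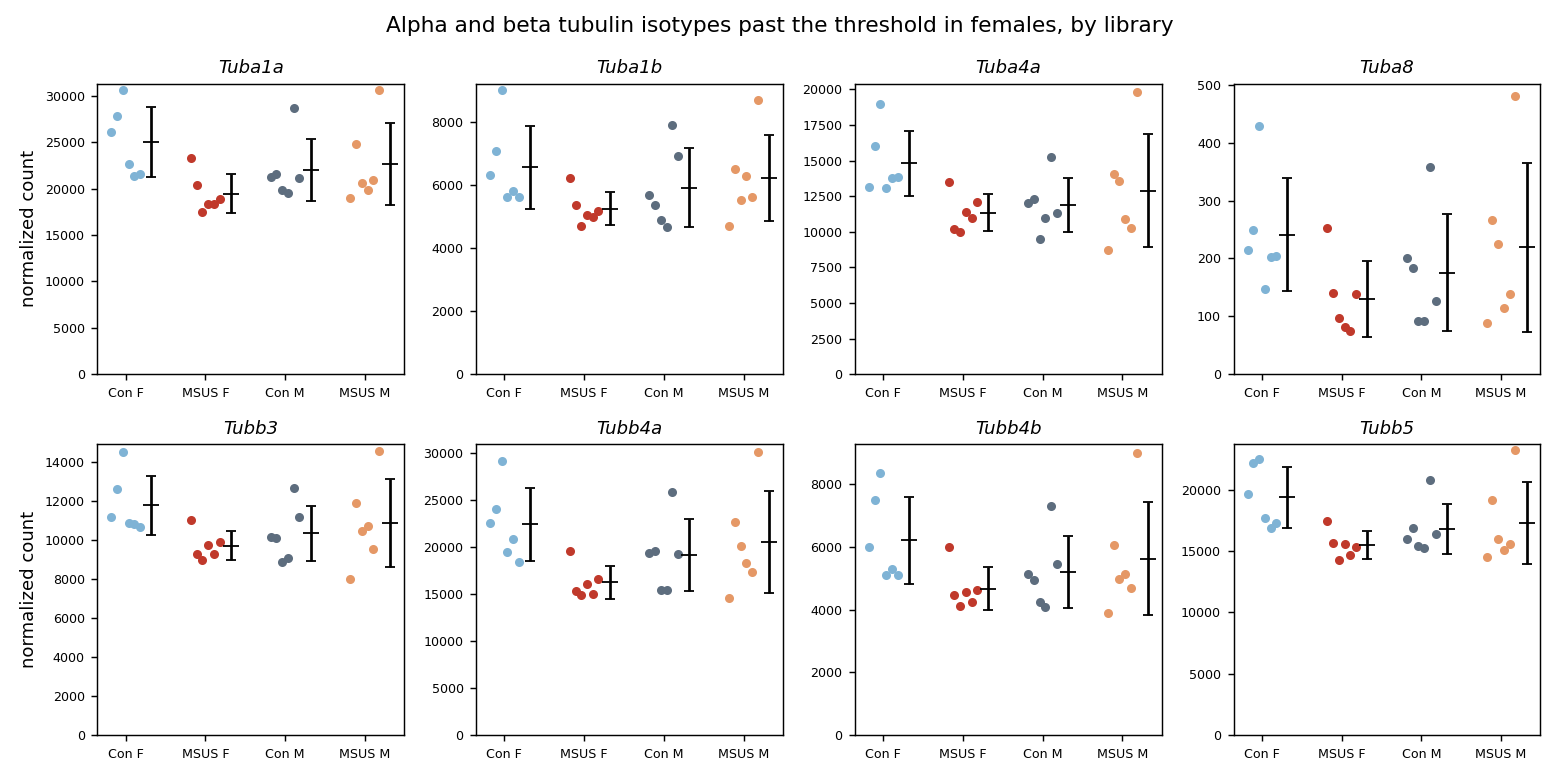
Normalized counts (vertical axis, linear from 0) of the 8 alpha and beta isotypes past the threshold in females, for each of the 4 groups on the horizontal axis. Each point is 1 library, and the bar beside it is the mean ± SD of 6 libraries. MSUS females lie low, and 1 library each of Con males (replicate 5) and MSUS males (replicate 6) stands above the rest of its group.

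Gamma tubulin and the ring complex split in direction. Tubg1, the main gamma tubulin, ran from 1221 to 1416 in Con females and from 1016 to 1184 in MSUS females, so the groups did not overlap, and its log2 fold change was -0.23 ± 0.05 (adjusted p = 0.00879), the smallest adjusted p of all 57 members. Tubg2, the brain-enriched copy, gave -0.17 ± 0.05 (adjusted p = 0.0394) and Tubgcp2, a core subunit of the small complex, gave -0.12 ± 0.04 (adjusted p = 0.0456). With offsets for gene length and GC content these 2 gave -0.07 ± 0.05 and -0.06 ± 0.04 (adjusted p = 0.342 and 0.347), and without the 4 libraries -0.12 ± 0.05 and -0.09 ± 0.04 (adjusted p = 0.131 and 0.135). Tubgcp3, the partner of Tubgcp2 in that complex, moved the other way, from 2315 to 2405 in Con females to 2418 to 2632 in MSUS females. Its groups did not overlap either, and the log2 fold change was 0.12 ± 0.03 (adjusted p = 0.0193). Over all genes tested, 7.26% had groups that did not overlap in females, 3.38% with all MSUS animals below and 3.88% with all above, and the members had 4 below (Tubg1, Kif1a, Kif3c and Kif1bp) and Tubgcp3 above. The subunits of the larger ring complex gave 0.03 ± 0.05 (Tubgcp4), 0.07 ± 0.03 (Tubgcp5) and -0.07 ± 0.03 (Tubgcp6), with adjusted p of 0.706, 0.144 and 0.160. Of the reads at the Tubgcp4 locus 48.5% lay on the other strand. Tubd1 and Tube1 gave 0.15 ± 0.08 and 0.11 ± 0.09 (adjusted p = 0.187 and 0.398).

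Of the 15 transport kinesins, 7 fell in MSUS females and none rose. The 3 heavy chains of kinesin-1, which carry cargo out along axons, had 2 members lower, and differences between the chains were not tested. Kif5a, the neuron-specific chain, ran from 87392 to 148010 in Con females (median 102940) and from 66557 to 95019 in MSUS females (median 79305). Every MSUS female was under the Con median, and its log2 fold change was -0.50 ± 0.14 (adjusted p = 0.0332). Kif5c, also neuronal, ran from 44981 to 65780 in Con and from 38775 to 49980 in MSUS females, with a log2 fold change of -0.25 ± 0.09 (adjusted p = 0.0727), and of -0.13 ± 0.06 (adjusted p = 0.181) without the 4 libraries. Kif5b, the chain found in nearly all cell types, ran from 15366 to 16538 in Con and from 15046 to 16436 in MSUS females and gave -0.01 ± 0.03 (adjusted p = 0.865). The standard error of Kif5b was the smallest of the chains, and its ranges nearly coincided.

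In kinesin-2, Kif3a pairs with Kif3b or Kif3c. Kif3c gave -0.19 ± 0.05 (adjusted p = 0.0303) with all MSUS females (11167 to 12476) below all Con females (12590 to 15302), and Kif3b gave -0.16 ± 0.05 (adjusted p = 0.0329). With offsets for gene length and GC content Kif3c gave -0.12 ± 0.05 (adjusted p = 0.121). Kif3a, the common subunit, gave -0.03 ± 0.04 (adjusted p = 0.588), at 6636 to 7732 in Con and 6447 to 7128 in MSUS females. Kif17, the homodimeric member that carries NMDA receptor subunits in dendrites, gave 0.09 ± 0.10 (adjusted p = 0.582). Part of Kif3c, 42.3% of its windows, is shared with other transcripts, matched on either strand.

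**Figure D2:**
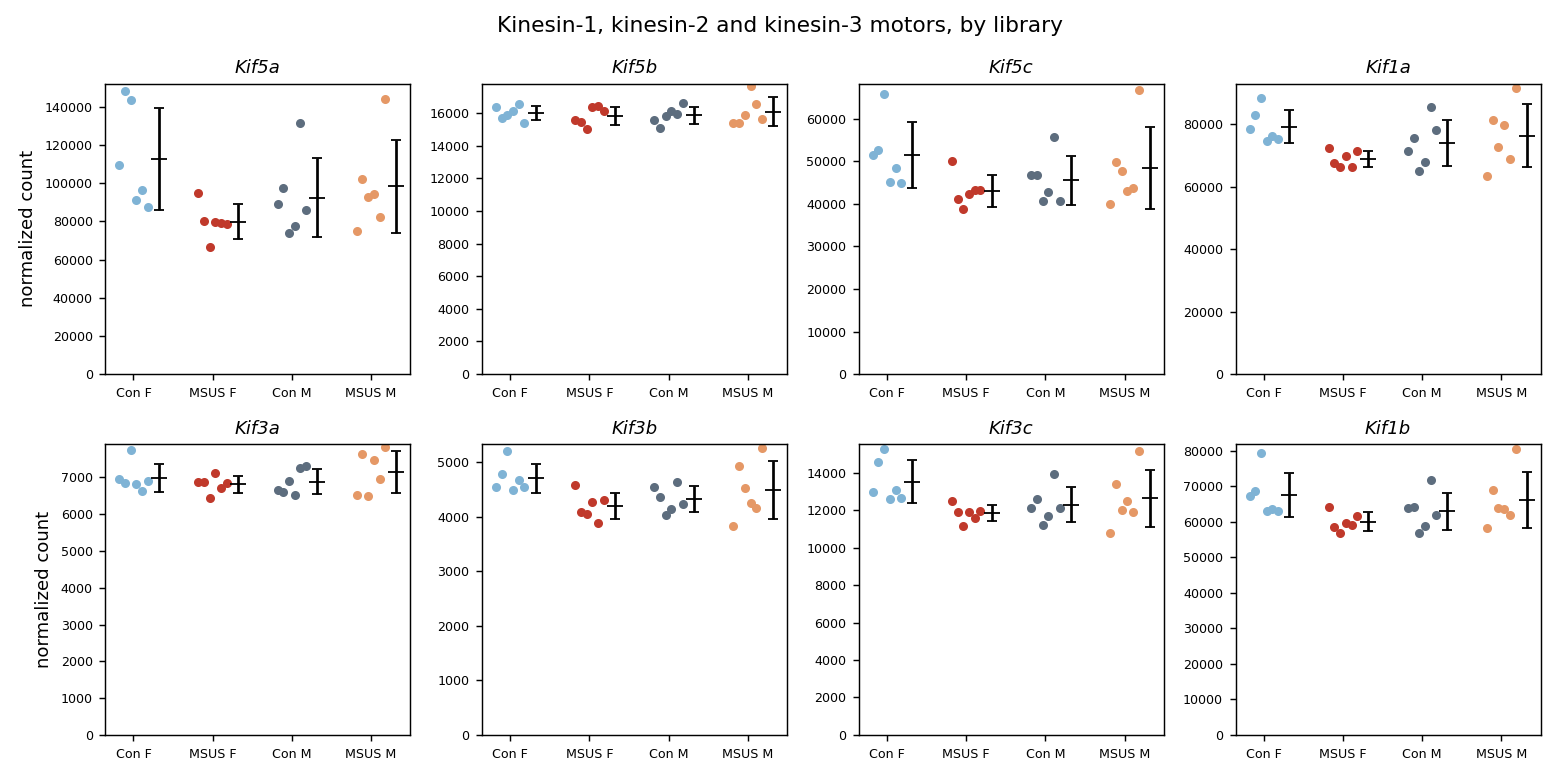
Normalized counts (vertical axis, linear from 0) of 8 transport kinesins in the 4 groups (horizontal axis). Each point is 1 library, and the bar beside it is the mean ± SD of 6. Kif5b and Kif3a are level across the groups, while Kif5a, Kif5c, Kif3c and Kif1a are lower in MSUS females than in Con females.

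Among the kinesin-3 motors, Kif1a ran from 74752 to 88302 in Con females and from 66270 to 72273 in MSUS females, without overlap, and gave -0.20 ± 0.05 (adjusted p = 0.0193), but -0.09 ± 0.04 (adjusted p = 0.182) with offsets for gene length and GC content. Kif1b, which carries mitochondria and synaptic vesicle precursors, gave -0.17 ± 0.06 (adjusted p = 0.0702), and Kif1c, a broadly expressed motor, gave -0.10 ± 0.03 (adjusted p = 0.0389). With the offsets Kif1c gave 0.0002 ± 0.03 (adjusted p = 0.998). Kif13a, Kif13b and Kif16b, which act on endosomes, did not pass, at -0.05 ± 0.03, -0.11 ± 0.06 and -0.08 ± 0.06. The kinesin-4 motor Kif21a, among the 5 highest kinesins by TPM, gave -0.08 ± 0.05 (adjusted p = 0.274). Kif1bp, the kinesin-binding protein, ran from 5733 to 6616 in Con and from 5124 to 5703 in MSUS females and gave -0.15 ± 0.04 (adjusted p = 0.0230). With the same offsets Kif1bp gave -0.10 ± 0.04 (adjusted p = 0.142). Of the 6 kinesins of cilia and centrioles (Kif6, Kif7, Kif9, Kif19a, Kif24 and Kif27) none passed, with log2 fold changes from -0.25 to 0.21.

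All 11 mitotic kinesins had a negative log2 fold change in MSUS females, from -1.49 to -0.23 with a median of -0.59. Of these 11, 2 passed (18.2%), where 25.1% of all genes did. Without Con female replicate 2 the median was -0.23 with 10 of 11 below 0, and without the 4 libraries highest in cortical markers it was -0.16 with 10 of 11 below 0, Kif23 being at 0.015 and 0.017. Kif18b, which shortens spindle microtubules, ran from 13.1 to 129 normalized counts in Con females (median 38.9) and from 13.02 to 30.8 in MSUS females (median 15.3). It gave -1.49 ± 0.50 (adjusted p = 0.0612). Kif20b, a motor of cytokinesis, ran from 40.3 to 145 in Con and from 34.1 to 68.7 in MSUS females and gave -0.68 ± 0.26 (adjusted p = 0.0874). The highest value of both genes was that of Con female replicate 2. Without that library neither passed, at -0.93 ± 0.36 (adjusted p = 0.114) and -0.45 ± 0.21 (adjusted p = 0.181), and without the 4 libraries they gave -0.74 ± 0.37 and -0.36 ± 0.22 (adjusted p = 0.210 and 0.298). The reads of Kif4, Kif15, Kif20a and Kif22 lay mostly on the other strand (73.3%, 64.9%, 90.0% and 71.9%), and counts without regard to strand gave 0.13 for Kif15 and 0.0098 for Kif22.

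Markers of dividing cells moved with the mitotic kinesins. Summed normalized counts of 8 markers (among them Mki67 and Top2a) ran from 420 to 4360 in Con females and from 509 to 1089 in MSUS females, and all 8 were detected in each group. The highest sum was again that of Con female replicate 2, which also had the highest sum of ependymal markers, 2099. The 11 mitotic kinesins summed to 2243 in that library and to 550 to 1168 in the other 11 Con libraries. The median log2 fold change of the 8 markers in females was -1.03, and 1 of them passed, where 25.1% of all genes did. The part of dividing cells in the result was not tested.

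**Figure D3:**
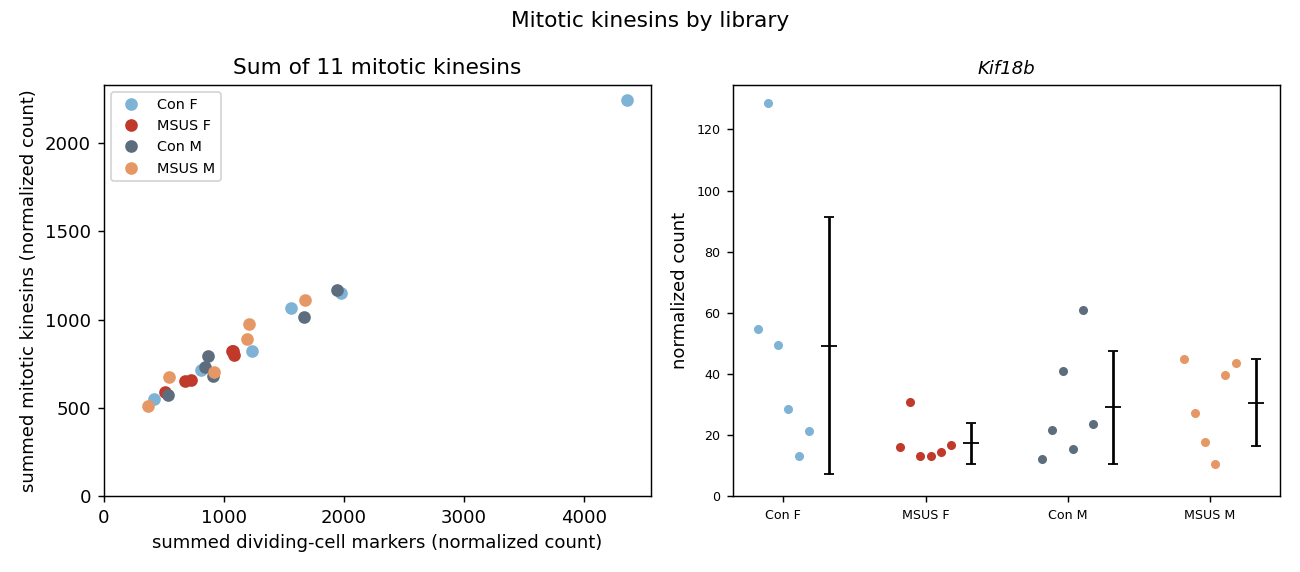
Left, the summed normalized count of the 11 mitotic kinesins (vertical axis) against the summed normalized count of 8 markers of dividing cells (horizontal axis), 1 point per library and coloured by group. Right, normalized counts of Kif18b by group with mean ± SD of 6. Con female replicate 2 lies apart at 2243 and 4360 on the left and at 129 on the right.

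Levels of the neuronal tubulins and of Kif5a were highest in the libraries highest in cortical markers. In Con females replicate 2 or 3 was the highest library for all 5 alpha isotypes, all 7 beta isotypes and 13 of 15 transport kinesins. Con male replicate 5 was the highest of its group for 4, 5 and 11 of them, and MSUS male replicate 6 for 4, 5 and 10. The pattern was not limited to neuronal genes. Replicate 2 or 3 was also the top Con female for all 11 mitotic kinesins, while Con male replicate 5 led in 9 and MSUS male replicate 6 in 5. For the 6 kinesins of cilia and centrioles these counts were 3, 0 and 0. Replicates 2 and 3 are 2 of 6 Con female libraries, and the share over all genes was not tested. Tuba1a read 30641 in MSUS male replicate 6 and 28644 in Con male replicate 5, against 18969 to 24837 in the other males. Kif5a read 144228 and 131452 in the same libraries, against 73705 to 102293 in the other males. The cortical list had a median log2 fold change of -1.75 in females. Of its 10 markers 3 passed, all lower, where 25.1% of all genes did. The 3 were Nrgn, Camk2n1 and Fezf2. Nrgn and Camk2n1 averaged 12204 and 32449 normalized counts in MSUS females, where the list summed to a median of 56022. MSUS female replicate 5 had a sum of 58115 with Slc17a7 at 221. The sum thus rests largely on Nrgn and Camk2n1, and whether they mark cortical cells alone was not tested.

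Without the 4 libraries highest in cortical markers, 7 of 21 tubulin members and 5 of 36 kinesin members passed in females, where 19.2% of all genes did. Tuba1a, Tuba4a, Tubb3, Tubb4a, Tubb5, Tubg1 and Tubgcp3 were the 7, and Kif5a, Kif1a, Kif3b, Kif3c and Kif1bp the 5. Tubb4a then gave -0.32 ± 0.08 (adjusted p = 0.0264) and Kif5a gave -0.26 ± 0.09 (adjusted p = 0.0709), smaller than with all libraries. Kif1b gave -0.09 ± 0.04 (adjusted p = 0.154) and Kif1c -0.08 ± 0.03 (adjusted p = 0.1). Tuba1a, Tuba4a, Tubb3, Tubb5 and Kif3c, which still passed, gave -0.23, -0.24, -0.16, -0.20 and -0.11. The median log2 fold change was -0.23 for the alpha isotypes, -0.16 for the beta isotypes and -0.03 for the transport kinesins, against -0.36, -0.28 and -0.11 with all libraries. With the mean of the cortical markers as a covariate no member passed in edgeR's test, while 7.96% of all genes did, and 7 members had an unadjusted p under 0.05. With the share of reads that met no gene as a covariate no gene passed (0.0%), the 22 called members kept their direction, at -2.54 to -0.06 for kinesins and -1.45 to 0.09 for the tubulin group, and 1179 genes, 5 of them members, had an unadjusted p under 0.05. The same held with the spliced share (splice events per uniquely mapped pair, from the library statistics of the study) as a covariate, where 719 genes, 2 of them members, had an unadjusted p under 0.05. The spliced share ran from 0.397 to 0.417 in Con females and from 0.321 to 0.381 in MSUS females. Neither the no-gene nor the spliced share overlapped between the female groups, so these fits cannot tell a share from the group. Of other cell types, with all libraries and no covariate, 6 of 9 markers of mature oligodendrocytes passed, all lower, with a median of -0.25. So did 3 of 7 markers of astrocytes, all lower, at a median of -0.11, where 25.1% of all genes passed. None of 10 markers of striatal projection neurons, 7 of microglia and 6 of endothelial cells passed in edgeR's test or in DESeq2, with 0, 1 and 3 at an unadjusted p under 0.05. Lower by the same test were also 2 of 8 markers of immature neurons, 1 of 5 of oligodendrocyte precursors and 1 of 6 of platelets or erythroid cells. Of 9 ependymal markers none passed in edgeR's test, with 1 at an unadjusted p under 0.05 and 1 called by DESeq2. The part of cortical tissue, of oligodendrocytes and of the no-gene share in the results was not tested.

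**Figure D4:**
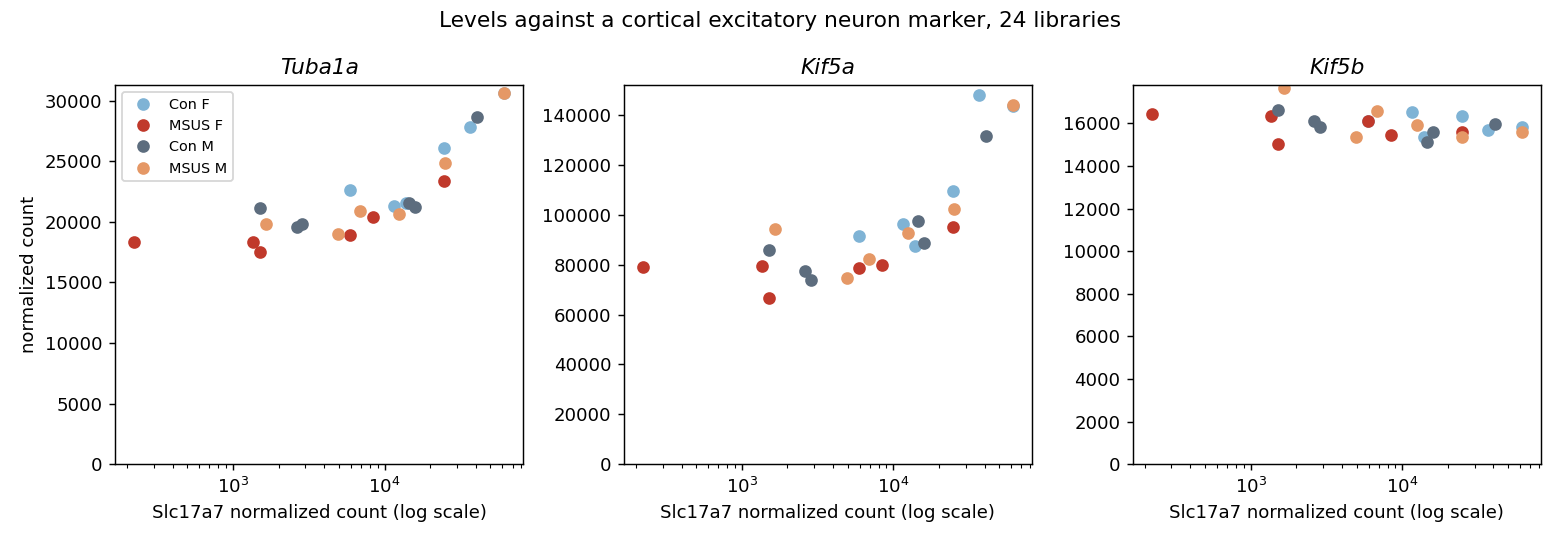
Normalized counts (vertical axes, linear from 0) of Tuba1a, Kif5a and Kif5b in 24 libraries against the normalized count of the cortical marker Slc17a7 (horizontal axis, log scale), coloured by group. Tuba1a and Kif5a are highest in the 4 libraries with Slc17a7 at or above 36841, and Kif5b is level throughout.

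The comparison of MSUS with Con males asked the same question in males. None of the 57 members passed in edgeR's test, where 0.0% of 20691 genes did, and none had an unadjusted p under 0.05. Of all genes 191 did, and DESeq2 also called no gene, with 304 at an unadjusted p under 0.05. The 2 male groups overlapped in every member, where 0.0338% of genes had groups that did not. Median log2 fold changes were 0.04 for the tubulin group and 0.02 for the kinesin group. Tuba1a gave 0.04 ± 0.12, Tubb4a 0.10 ± 0.17, Tubg1 0.01 ± 0.08 and Kif5a 0.09 ± 0.17. The standard errors of these 4 genes were larger than in females, and MSUS male replicate 6 was the highest library for Tuba1a, Tubb4a and Kif5c. The kinesins with the smallest p were Kif2c at -0.53 ± 0.30, Kif26a at -0.17 ± 0.10 and Kif16b at 0.05 ± 0.04 (adjusted p of each 1.000).

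**Figure D5:**
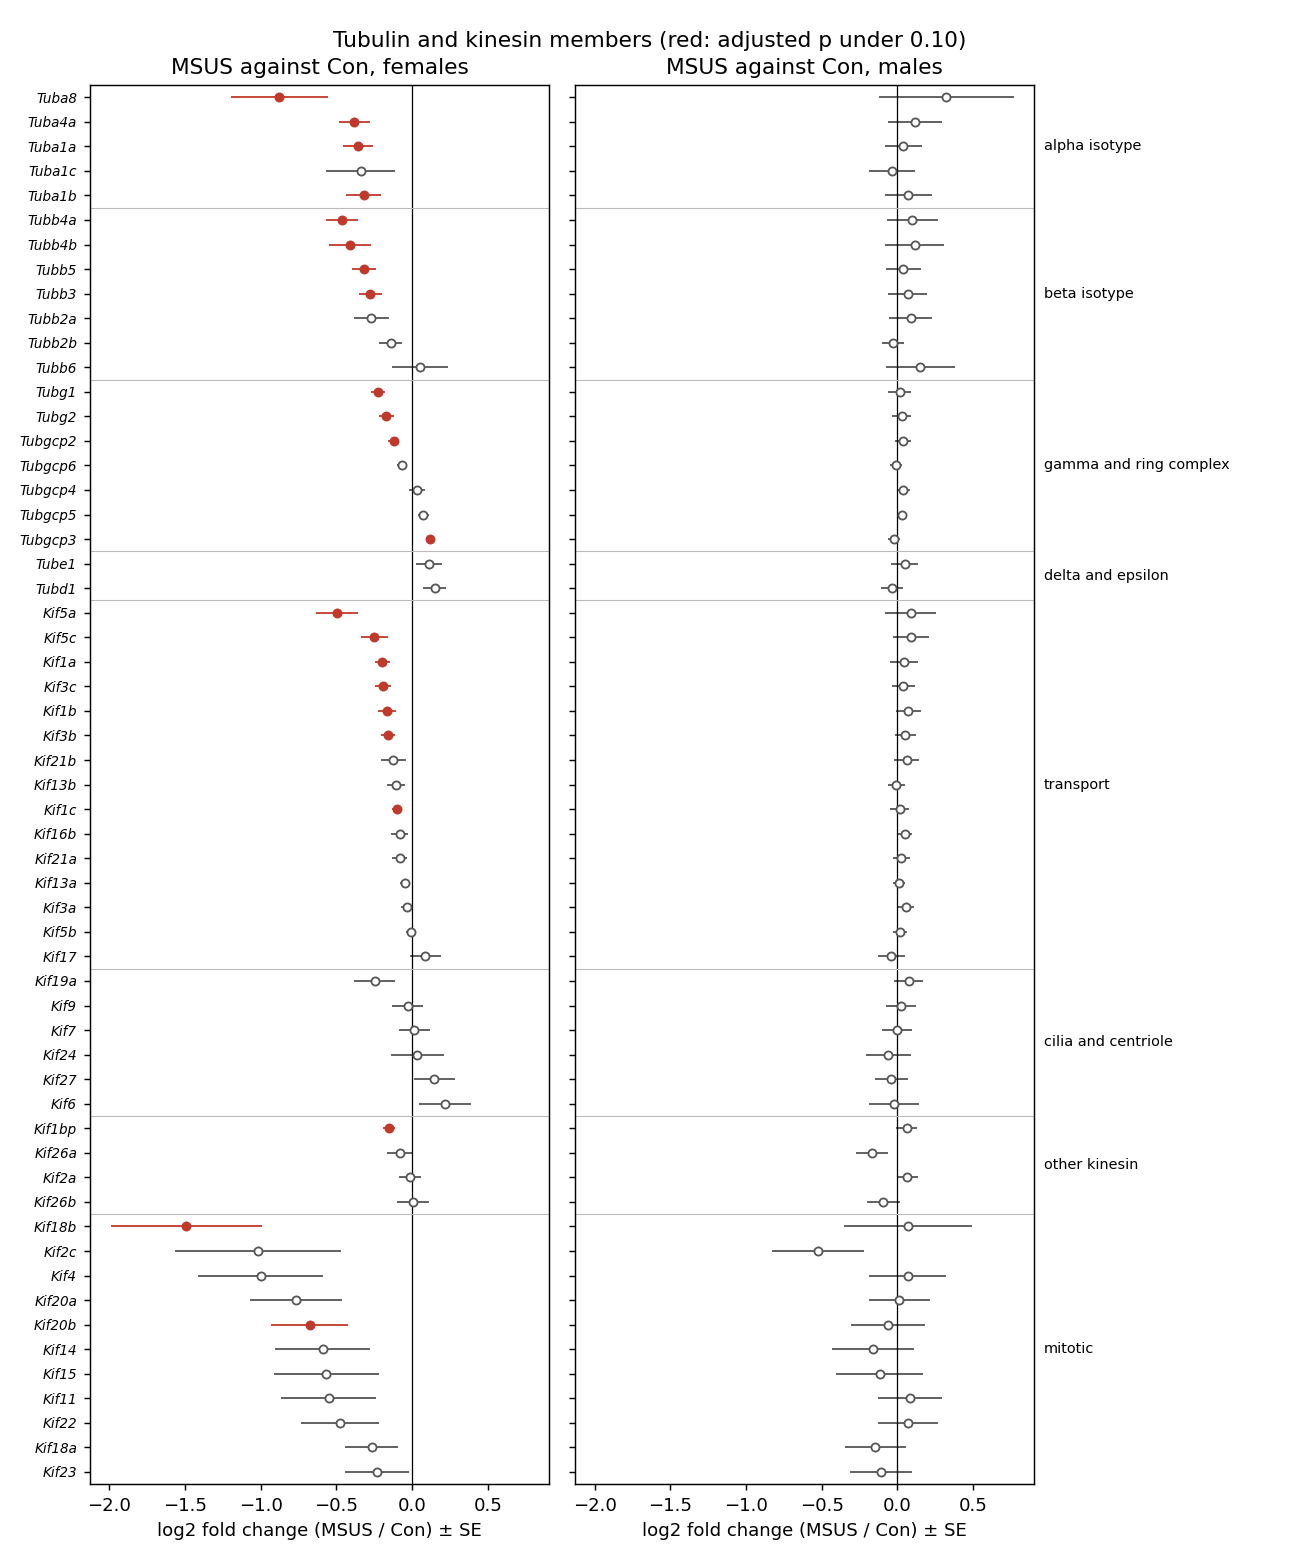
Log2 fold changes of MSUS over Con (horizontal axis) with standard errors for the 57 members (vertical axis), ordered by role, in females on the left and males on the right. Filled red points passed an adjusted p of 0.10. In females 45 of 57 members lie below 0, and in males 19 do.

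Con females were compared with Con males to ask which members differ by sex without stress. No member passed, where 2.64% of 20641 genes did (0.799% higher and 1.84% lower in females), and 7 members had an unadjusted p under 0.05. The sexes overlapped in every member, where 2.05% of genes had groups that did not (0.993% with all females above and 1.06% with all below). Alpha and beta isotypes were nominally higher in females, all 12 of them, with medians of 0.22 and 0.21. Tubg1 was nearest to the threshold at 0.18 ± 0.05 (adjusted p = 0.119), and DESeq2 called it (0.17 ± 0.06, adjusted p = 0.0680). Without Con male replicate 5, Tuba4a (0.38 ± 0.10, adjusted p = 0.0640), Tubb5 (0.26 ± 0.08, adjusted p = 0.0972) and Tubgcp3 (-0.10 ± 0.03, adjusted p = 0.0865) passed, where 6.7% of genes did. The kinesins with the smallest p were Kif1bp (0.13 ± 0.05), Kif3b (0.13 ± 0.05) and Kif3c (0.14 ± 0.06), with adjusted p from 0.170 to 0.254.

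Among MSUS animals no member differed by sex, where 0.135% of 20714 genes did (0.0386% higher and 0.0966% lower in females), and 10 members had an unadjusted p under 0.05. The directions were mostly the other way, since 44 of 57 members were nominally lower in females. Kif13b, with a log2 fold change of -0.17 ± 0.04 (adjusted p = 0.163), ran from 3666 to 3848 in MSUS females and from 3875 to 4400 in MSUS males, without overlap, and Kif13a did not overlap either (-0.15 ± 0.04, adjusted p = 0.273). Over all genes 0.637% had groups that did not overlap, 0.43% with all females below and 0.208% above. DESeq2 called Kif13b (-0.17 ± 0.04, adjusted p = 0.00716). Kif16b was the third kinesin by p, at -0.11 ± 0.04 (adjusted p = 0.581). Both sex comparisons share their animals with the comparisons of MSUS with Con, so they are not independent of them.

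The group-by-sex interaction asked whether the change after MSUS differed between females and males. No member passed in edgeR's test over 21500 genes, where 0.0% of genes did (4031 had an unadjusted p under 0.05), and the smallest adjusted p of a member was 0.200, that of Tubgcp3 at 0.14 ± 0.04. DESeq2 called 408 genes but no member. Unadjusted p-values under 0.05 were found for 21 of 57 members. Tubb4a gave -0.57 ± 0.21 (adjusted p = 0.212), Tuba1a -0.40 ± 0.17 (adjusted p = 0.227), Kif5a -0.59 ± 0.23 (adjusted p = 0.216), Kif1bp -0.22 ± 0.08 (adjusted p = 0.212) and Kif3b -0.22 ± 0.09 (adjusted p = 0.220). A difference between the sexes in the response of the members was thus not shown with all 24 animals. Without MSUS male replicate 1, 14.0% of genes passed and so did 8 tubulin and 6 kinesin members, among them Tubb4a (-0.64 ± 0.20, adjusted p = 0.0599) and Kif1bp (-0.26 ± 0.07, adjusted p = 0.0442). This fit was the exception. Leaving out any other single animal gave 0 genes past the threshold, or 1 gene without Con female replicate 5. MSUS male replicate 1 had the highest share of reads that met no gene, 45.0%.

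Other genes of the microtubule system were counted on 5 lists in females. Of the 22 subunits and regulators of cytoplasmic dynein and dynactin, the motor that runs back towards the cell body, 11 fell and none rose, with a median log2 fold change of -0.10. Actr1a, the filament of dynactin, gave -0.18 ± 0.03 (adjusted p = 0.00652), Dynlrb1 gave -0.19 ± 0.04 (adjusted p = 0.00964) and Actr1b -0.20 ± 0.05 (adjusted p = 0.0205). Kinesin light chains, adaptors and C-kinesins had 4 of 9 lower and none higher, with Klc1, the light chain of kinesin-1 in neurons, at -0.28 ± 0.07 (adjusted p = 0.0183), Kifc2 at -0.22 ± 0.06 (adjusted p = 0.0360) and Klc3 at -0.45 ± 0.13 (adjusted p = 0.0388).

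Microtubule-associated proteins and stathmins had 10 of 27 lower and 1 higher, with a median of -0.12. Map7d1, which recruits kinesin-1, gave -0.18 ± 0.03 (adjusted p = 0.00616), Stmn4 -0.32 ± 0.06 (adjusted p = 0.00752) and Mapt, which encodes tau, -0.19 ± 0.05 (adjusted p = 0.0273). Tubulin modifying enzymes had 4 of 21 lower and 1 higher. Ttl, the ligase that restores the last tyrosine of alpha tubulin, gave -0.28 ± 0.05 (adjusted p = 0.00464), Sirt2, a deacetylase of alpha tubulin abundant in oligodendrocytes, -0.19 ± 0.04 (adjusted p = 0.0104) and Agtpbp1, which trims glutamates from tubulin tails, -0.17 ± 0.06 (adjusted p = 0.0535). Of 22 genes for tubulin folding and for the control of tubulin mRNA, 6 were lower and 1 higher. Tbce, a folding cofactor, was the one that rose, at 0.14 ± 0.04 (adjusted p = 0.0218), while Pfdn6 gave -0.18 ± 0.05 (adjusted p = 0.0222) and Tbcb -0.20 ± 0.06 (adjusted p = 0.0313). Dynein and dynactin at 50.0%, light chains at 44.4% and microtubule-associated proteins at 40.7% were above the 25.1% of all genes, while folding at 31.8% and modifying enzymes at 23.8% were near it. In males none of the 101 genes tested from these 5 lists passed in edgeR's test or in DESeq2, and none had an unadjusted p under 0.05.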

How the data were processed

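The authors deposited 1 table of raw read counts per gene for each library, made with STAR 2.6.1b against mm10 with GENCODE gene models from rRNA-depleted stranded libraries. The deposited counts come in 3 columns, and the column for the sense strand was used. Multi-mapped reads are not in these counts, so isotypes with shared sequence are counted from their distinct parts. The authors' own female comparison included estrous stage, which the labels do not give for all females, so no such term was used here.

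Reads assigned to genes ran from 39923666 to 70575745 per library, and reads that met no gene were 31.3% to 45.0% of these 2 classes together and entered no library size. Genes were kept with edgeR's filterByExpr (minimum count 10), scaled by TMM and tested with edgeR 4.0.16 (robust quasi-likelihood F test, Benjamini-Hochberg over all genes, threshold 0.10), with 6 animals a group and 24 for the interaction. DESeq2 1.42.0 was an alternative, and its size factors over 24 libraries gave the normalized counts. TPM used union exon lengths of GENCODE on GRCm38, to which 52489 of 52636 identifiers matched. Precision rests on the spread between animals, which may be littermates. The procedure was tested on simulated data: of 100 genes changed by 1.5-fold in the female design 77.0% were recovered, and of 100 changed by 2-fold 94.0%.

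The members, their roles, the motifs and all gene lists were chosen with earlier results of these data known. Named were every member of the tubulin group, the kinesins past the threshold in females, the 5 kinesins highest in TPM, the 3 with the smallest p in each of the other 4 comparisons, and the 3 genes of each related list with the smallest p in females. Other kinesins were named after their values were seen, to complete a complex or a role. Within groups, all library pairs differed by more than sampling noise (lowest chi-square per gene 6.34 over 60 pairs). Alternatives changed the test, the filter, the scaling, the strand column, the covariates (1 of them the spliced share, taken from the library statistics of the study) and the animals included. Leaving out the 4 libraries highest in cortical markers was chosen after seeing the data. Promoters and their starts came from RefSeq on GRCm38.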

Additional observations from a re-analysis of the deposited data

Results flagged for a closer look

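Normalized counts of 37 members were examined in each group for a single library far from the other 5 (gap to the nearest over the whole range above 0.625), and 14 of 148 group values met this, where chance gives about 1 in 20.

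In Con females, replicate 3 stood apart in Kif1b (79360), Kif1bp (6616), Kif5c (65780) and Tuba8 (430), each above its group, and replicate 2 in Kif18b (129) and Kif2c (131). Replicates 2 and 3 are among the 4 libraries highest in cortical markers, and replicate 2 is also the highest in markers of dividing cells. In MSUS females, replicate 1 stood above its group in Tuba8 (252), Tubb4a (19547) and Tubb4b (6008), replicate 2 in Kif18b (30.8) and replicate 4 apart in Tubgcp4 (1630). In males, Con replicate 5 stood above its group in Tuba1a (28644) and Tubb5 (20764), and MSUS replicate 6 in Kif5c (66819). Both of these male libraries are also among the 4 highest in cortical markers.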

How the results depend on the processing

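In females 12 tubulin and 10 kinesin members passed an adjusted p of 0.10 in edgeR's test, where 25.1% of all genes did. DESeq2 called 13 and 12, where 15.8% of the 36401 genes it tested passed. Counts without regard to strand gave 14 and 10, where 29% of genes passed. Adding the no-gene share, the spliced share or the cortical marker mean as a covariate left 0 and 0, where 0.0%, 0.0% and 7.96% of genes passed. The no-gene and spliced shares did not overlap between the female groups. Length and GC offsets left 6 tubulin members and kept 6 of the 10 kinesin calls, where 15.8% of genes passed. Kif2a (-0.20 ± 0.05, adjusted p = 0.0433) and Kif18a (-0.48 ± 0.17, adjusted p = 0.0929) newly passed with the offsets. The 4 libraries highest in cortical markers, when left out, took the counts to 7 and 5, where 19.2% of genes passed. The calls lost with the offsets were those of Tuba1b, Tuba8, Tubb3, Tubb4b, Tubg2, Tubgcp2, Kif1a, Kif1c, Kif3c and Kif1bp. For kinesins an adjusted p under 0.05 left 6, where 15.2% of genes passed, and no filter on low counts left 6, where 10.1% did. Leaving out single animals gave 8 to 14 tubulin and 6 to 13 kinesin members, and 6 kinesins were left without Con female replicate 2 or MSUS female replicate 3, 4 or 5. Of all genes 15% to 27.7% passed in these fits.

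Replicate numbers did not pair the libraries, since correlations of same-numbered females ran from -0.26 to 0.27 and no female correlated best with its own number. With the replicate number as a block 8 tubulin and 7 kinesin members passed in females, where 18.5% of genes did. With the block and length and GC offsets 4 and 2 passed, where 8.05% of genes did.

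Among Con animals 1 tubulin member differed by sex with DESeq2, 1 with counts without regard to strand (Tubg1 in both), 1 without the 4 libraries (Tuba4a) and 0 to 3 when single animals were left out, the 3 without Con male replicate 5. Of all genes 4.03% passed with DESeq2, 5.78% without regard to strand and 3.54% without the 4 libraries. Length and GC offsets gave 1 kinesin, Kif13a, where 0.266% of genes passed. Among MSUS animals 1 kinesin, Kif13b, differed by sex with DESeq2, and leaving out single animals gave 0 to 1, the 1 without MSUS male replicate 1. For the interaction, leaving out single animals gave 0 to 8 tubulin and 0 to 6 kinesin members, the highest without MSUS male replicate 1.

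In females 25 of 57 members turned in sign under at least 1 alternative, of which only Kif1c had passed. Of the members named by the rule these were Tuba1c (0.28) and Tubb2b (0.075) with the spliced share, Tubb6 (-0.031 to 0.23 when single animals were left out, the lowest without Con female replicate 4), Tubgcp4 with the no-gene share (-0.022) and the spliced share (-0.12), Tubgcp6 (0.0307) and Kif1c (0.00020) with length and GC offsets, the same with the block (0.0307 and 0.00037), and Kif21a (0.0065) with the cortical covariate. Among the others were Kif17 (-0.065), Kif3a (0.010), Kif14 (0.032), Kif18a (0.068) and Kif23 (0.049) with the cortical covariate, Kif13a (0.035) with length and GC offsets, Kif5b with the no-gene (0.12) and the spliced share (0.12) and Kif23 (0.017) without the 4 libraries. Kif3c turned between Con females and males with the spliced share (-0.015). The cause of these changes was not tested. Values of the named members and medians of the tubulin and kinesin groups were counted together over all comparisons and alternatives, and 1250 stayed the same. For a member this means the same direction and side of the threshold, and for a median a shift within the spread between animals. Of the rest, 171 member values no longer passed, 13 newly did and 11 turned in sign, while 13 medians moved further.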
